A study of Mus musculus with 16 samples.

Results

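Glycine conjugation is a way by which liver and kidney dispose of acyl groups. An acid is first joined to coenzyme A by an acyl-CoA synthetase, and a glycine N-acyltransferase then moves the acyl group to glycine, which gives a water-soluble acylglycine that leaves in urine. In disorders of propionate breakdown, propionylglycine is a known urinary marker. The genes described here are 9: the glycine N-acyltransferase genes Glyat and Keg1, 4 genes of the Acsm family (Acsm1, Acsm2, Acsm3 and Acsm5), whose products activate medium-chain acids in mitochondria, and 3 genes of the Acss family (Acss1, Acss2 and Acss3), whose products activate acetate or propionate. They were chosen by symbol, and all 9 were measured, each by 1 probe set, among 19938 genes in all.

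Liver RNA of male mice aged 4 months was measured on 16 Affymetrix Mouse Gene 1.0 ST arrays, 1 for each liver. The study concerns methylmalonic acidemia, the disorder caused by loss of methylmalonyl-CoA mutase, the enzyme that Mut (now Mmut) encodes. The mutants were Mut -/-;TgINS-MCK-Mut and the controls heterozygous Mut +/-;TgINS-MCK-Mut, so every mouse carried the transgene, whose muscle creatine kinase (MCK) promoter drives the enzyme in muscle and not in liver. Each genotype was sampled unfasted on a normal diet and after a fast, with 4 mice in each of the 4 groups. The fast lasted 12 hours in heterozygotes and 8 to 12 hours in mutants, with no length given for each mouse, so genotype and length of fast cannot be told apart between the fasted groups.

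Values are on the log2 scale of the deposited normalized signal, so a difference of 1 is a doubling. A gene was called in a comparison when limma gave an adjusted p under 0.05 over all genes. Mmut read 9.66 to 10.10 on the 8 heterozygous arrays and 7.85 to 8.33 on the 8 mutant ones, with no overlap between genotypes. Unfasted mutant replicate 1 held transcripts of pancreatic acinar cells, with Cpa1 (carboxypeptidase A1) at 12.29 against 6.84 to 7.22 on the other 15 arrays. The log2 of the summed signal of 9 acinar markers was 14.60 there and at most 10.27 elsewhere, and none of them was called. The log2 of the summed signal of 8 hepatocyte markers lay between 16 and 16.25 on all arrays, and none of them was called in any comparison. Some endothelial and stellate cell markers were called higher in mutants in both states, and macrophage markers only in the fasted state. Of 12 macrophage, 10 endothelial and 10 stellate markers, 0, 7 and 6 rose unfasted and 10, 7 and 2 fasted. Of all genes, 4.25% were called higher in the unfasted and 8.62% in the fasted state. The summed signal of the endothelial list was 12.84 to 13.21 in heterozygotes and 13.29 to 13.59 in mutants, that of the stellate list 12.89 to 13.12 and 13.10 to 13.51, and that of the macrophage list 12.41 to 13.00 and 12.66 to 13.67, again as log2. Their part in the differences between genotypes was not tested, and in whole liver fewer cells of a type and less RNA per cell cannot be told apart. Genes of kidney tubule cells, where acylglycines are also made, had a summed signal of 9.86 to 10.10 on all arrays with none of 8 called.

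The promoters of Keg1, Acss2 and Glyat are shown from RefSeq (GRCm38.p6). Each is the 250 bases before the annotated start, 5′ to 3′, with matches to the searched motifs in capitals. Keg1 and Glyat stand first because they are glycine N-acyltransferase genes on chromosome 19, apart by only 2 olfactory receptor genes among protein-coding genes, with the largest range of group means (Keg1) and one of the smaller (Glyat). Acss2 follows as the gene with the next largest range.
Keg1 (chr19:12695540-12695789, plus strand): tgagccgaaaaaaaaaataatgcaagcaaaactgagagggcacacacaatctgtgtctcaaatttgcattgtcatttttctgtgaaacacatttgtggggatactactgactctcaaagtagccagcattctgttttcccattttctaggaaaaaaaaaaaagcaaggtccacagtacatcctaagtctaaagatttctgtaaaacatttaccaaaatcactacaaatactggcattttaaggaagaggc
Glyat (chr19:12633058-12633307, plus strand): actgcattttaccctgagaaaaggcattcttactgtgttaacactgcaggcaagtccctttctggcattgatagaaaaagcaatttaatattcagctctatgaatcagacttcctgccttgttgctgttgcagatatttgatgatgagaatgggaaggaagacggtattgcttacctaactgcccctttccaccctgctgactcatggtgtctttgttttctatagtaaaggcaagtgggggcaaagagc
Acss2 (chr2:155517793-155518042, plus strand): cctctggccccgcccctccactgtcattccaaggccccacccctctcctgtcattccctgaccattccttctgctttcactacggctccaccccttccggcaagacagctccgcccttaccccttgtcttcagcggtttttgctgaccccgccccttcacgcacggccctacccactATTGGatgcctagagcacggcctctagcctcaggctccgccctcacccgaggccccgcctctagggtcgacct
Promoters were found for 8 of the 9 genes. The motifs searched on both strands were CCAAT (bound by NF-Y), CACGTG (the E-box), TCACNCCAC (the core of a sterol regulatory element), CAAAGTCCA (a site of HNF4A) and TGATGNAA (an amino acid response element). Among all 32851 promoter windows of this length, 33.9%, 6.02%, 1.05%, 0.384% and 3.45% held them. The Keg1 and Glyat windows held no match. The Acss2 window held 1 CCAAT, which reads ATTGG on the strand shown, starting 73 bases before the start site. CCAAT was also found in the windows of Acsm1, Acsm3 and Acsm5, and CACGTG only in that of Acsm5. The Acss2 window was 64.0% G and C with 13 CG pairs, the Keg1 window 36% with 1, and the median of all windows was 52.4%. A match is a description of letters and no measured site.

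Keg1 showed the widest range of the 9 genes. It is a relative of Glyat named for its expression in kidney. On unfasted heterozygous arrays it read 11.86, 12.26, 11.74 and 12.28, and on fasted heterozygous arrays 10.09, 10.74, 9.96 and 10.89. All fasted values lay below all unfasted ones. Keg1 thus fell by 1.61 ± 0.28 (standard error) with fasting in heterozygotes, 3.06-fold (limma, adjusted p = 0.0088, n = 4 arrays a group). Unfasted mutants read 10.97, 11.34, 10.96 and 10.91, below every unfasted heterozygote and above every fasted one. The difference from unfasted heterozygotes was -0.99 ± 0.28, or 1.99-fold (adjusted p = 0.039).

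Fasted mutants read 9.22, 9.72, 10.64 and 10.53 for Keg1, all below the unfasted mutants and overlapping the fasted heterozygotes. The fall with fasting in mutants was -1.02 ± 0.28 and did not pass (adjusted p = 0.055), nor did the difference between the fasted genotypes, at -0.39 ± 0.28 (adjusted p = 0.35). The order of the group means was unfasted heterozygotes at 12.04 ± 0.28 (SD), unfasted mutants at 11.04 ± 0.20, fasted heterozygotes at 10.42 ± 0.46 and fasted mutants at 10.03 ± 0.68. Of the neighbours in this order only the highest pair was called different. The fall in fasted heterozygotes kept its call without any 1 of the 16 arrays, with adjusted p up to 0.036. The lower level in unfasted mutants lost its call without mutant unfasted replicate 1, 3 or 4 or any 1 of the 4 unfasted heterozygous arrays, with adjusted p up to 0.11 and differences between -1.09 and -0.91. The fall in mutants gained a call without mutant unfasted replicate 1 (adjusted p = 0.048) or mutant fasted replicate 3 (0.039) or 4 (0.045).

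Glyat, the glycine N-acyltransferase of liver mitochondria, had group means within 0.28 of each other. It read 11.29, 11.16, 11.18 and 11.22 in unfasted heterozygotes and 10.93, 10.96, 10.81 and 11.01 in fasted ones. These groups did not overlap, yet the difference of -0.28 ± 0.09 did not pass (adjusted p = 0.16). It passed in the limma fit of only the 8 arrays compared and with array weights (adjusted p down to 0.036). Unfasted mutants read 11.31, 11.15, 10.92 and 10.91 and fasted mutants 10.70, 11.04, 11 and 11.02, so both overlapped with the heterozygotes. The genotype difference was -0.14 ± 0.09 unfasted (adjusted p = 0.43) and 0.01 ± 0.09 fasted (adjusted p = 0.94), and the sign of the latter turned with centred arrays or a second quantile normalization. No neighbours in the order of the 4 Glyat means were called different.

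**Figure D1:**
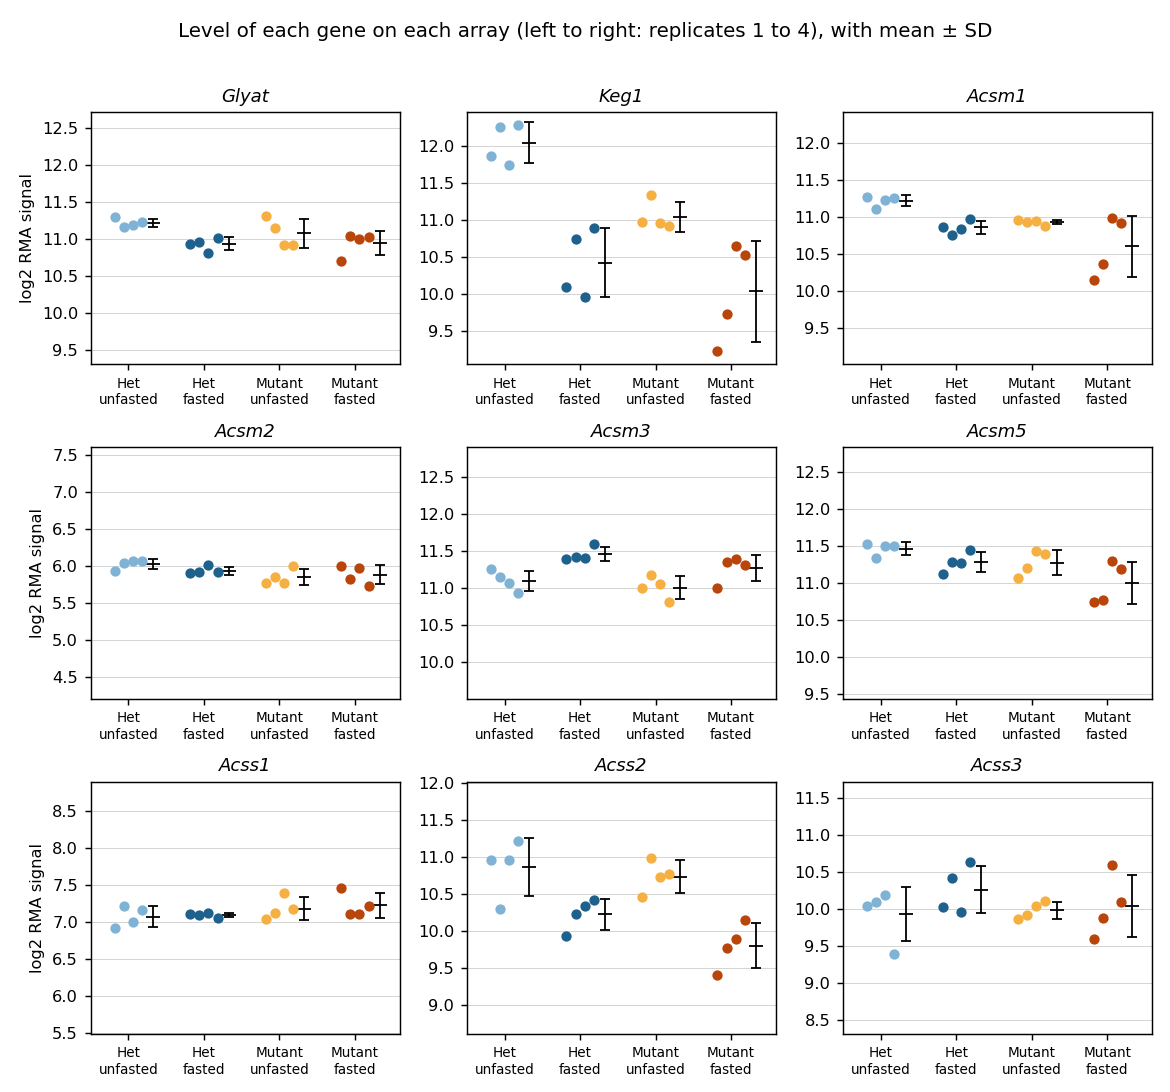
Level of each of the 9 genes (log2 RMA signal, vertical axis, the same span of 3.4 units in every panel) on the 4 arrays of each group, replicates 1 to 4 from left to right, with the group mean ± SD in black. Keg1 and Acss2 span the widest ranges, with group means of Keg1 from 12.04 to 10.03 and of Acss2 from 10.87 to 9.81, while those of Glyat, Acsm2 and Acss1 span 0.28, 0.18 and 0.15.

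Acss2, the acetyl-CoA synthetase of cytosol and nucleus and a known target of the SREBP transcription factors, was the other gene that passed where only genotype or only feeding changed. Unfasted mutants read 10.46, 10.99, 10.73 and 10.78, and fasted mutants 9.41, 9.77, 9.90 and 10.15, without overlap. The fall was -0.93 ± 0.19, or 1.91-fold (adjusted p = 0.015, n = 4 a group). Without any 1 array it stayed between -1.05 and -0.80 with adjusted p up to 0.048, and in a fit of only these 8 arrays its adjusted p was 0.065.

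In heterozygotes Acss2 read 10.97, 10.30, 10.97 and 11.22 unfasted and 9.94, 10.24, 10.34 and 10.42 fasted. Replicate 2 of the unfasted group lay within the fasted range. The difference was -0.63 ± 0.19 and did not pass (adjusted p = 0.11). Without that array it was -0.82 and passed (limma, adjusted p = 0.023). It also passed on all 16 arrays with array weights (adjusted p = 0.023). The fasting effects of the genotypes were not called different, with an interaction of -0.30 ± 0.26 (adjusted p = 0.65). Between genotypes Acss2 differed by -0.12 ± 0.19 unfasted (adjusted p = 0.77) and by -0.43 ± 0.19 fasted (adjusted p = 0.13), and neither passed. The order of means was unfasted heterozygotes at 10.87 ± 0.39, unfasted mutants at 10.74 ± 0.22, fasted heterozygotes at 10.23 ± 0.21 and fasted mutants at 9.81 ± 0.31, and no neighbours in it were called different.

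The mitochondrial members of the Acss family did not pass in any comparison of 2 groups. Acss3, which prefers propionate, had group means of 9.93 ± 0.36, 10.26 ± 0.32, 9.98 ± 0.11 and 10.04 ± 0.42 in unfasted and fasted heterozygotes and unfasted and fasted mutants. Its lowest value was 9.39 on unfasted heterozygous replicate 4 and its highest 10.63 on fasted heterozygous replicate 4, and all groups overlapped. The sign of its difference between unfasted genotypes, 0.06 ± 0.21, turned to -0.12 without unfasted heterozygous replicate 4. Acss1, the mitochondrial acetyl-CoA synthetase, was below the median brightness of all genes and lay between 6.92 and 7.47 on every array. Its group means spanned 0.15, the smallest range of the 9.

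The Acsm genes lie in 1 stretch of chromosome 7, in the order Acsm5, Acsm2, Acsm1, Acsm4, 2 unrelated protein-coding genes and Acsm3. Acsm1, which activates medium-chain acids and benzoate, read 11.27, 11.11, 11.23 and 11.26 in unfasted and 10.86, 10.76, 10.84 and 10.97 in fasted heterozygotes. It read 10.95, 10.93, 10.94 and 10.88 in unfasted mutants and 10.15, 10.36, 10.98 and 10.91 in fasted ones. Every unfasted heterozygote thus lay above all 12 other arrays. Neither the fasting difference in heterozygotes, -0.36 ± 0.14 (adjusted p = 0.26), nor the genotype difference in the unfasted state, -0.29 ± 0.14 (adjusted p = 0.23), passed. Both were called in fits of only the 8 arrays compared (adjusted p = 0.019 and 0.037).

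Acsm3, known for hypertension-linked expression in rat kidney and a synthetase of short and medium-chain acids, was 1 of 3 members, with Acss1 and Acss3, whose mean was higher after the fast in heterozygotes. It read 11.26, 11.15, 11.07 and 10.93 in unfasted heterozygotes and 11.39, 11.42, 11.41 and 11.60 in fasted ones, without overlap. The difference of 0.35 ± 0.10 did not pass (adjusted p = 0.089) but did in the fit of only these arrays, with array weights and after a second quantile normalization (adjusted p down to 0.013). It also passed without fasted mutant replicate 1 (adjusted p = 0.046). In mutants it was 0.26 ± 0.10 (adjusted p = 0.14), with 11.01, 11.18, 11.06 and 10.81 unfasted and 11.01, 11.35, 11.40 and 11.32 fasted. The groups that differ in both genotype and feeding were also compared: unfasted mutants lay below fasted heterozygotes by 0.44 ± 0.10 (log2 difference -0.44, adjusted p = 0.0086), where 10.9% of all genes were called (5.96% higher and 4.90% lower).

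Acsm5, a relative of Acsm1 whose substrate is less well known, had group means of 11.46 ± 0.09, 11.28 ± 0.13, 11.27 ± 0.17 and 11 ± 0.29 in the order given for Acss3. No comparison that changed only genotype or only feeding was called. The largest was -0.28 ± 0.12 between the fasted genotypes (adjusted p = 0.13), which passed without mutant fasted replicate 3 (adjusted p = 0.040). Acsm2 was dim, between 5.73 and 6.07 on all arrays, so that a change of it can be understated. Its difference between unfasted genotypes was -0.18 ± 0.06 (adjusted p = 0.087), and it passed with arrays centred on their medians (adjusted p = 0.032) or without mutant unfasted replicate 4 (adjusted p = 0.027). A further probe set is annotated to Acsm2 together with a mitochondrial gene and was not used.

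**Figure D2:**
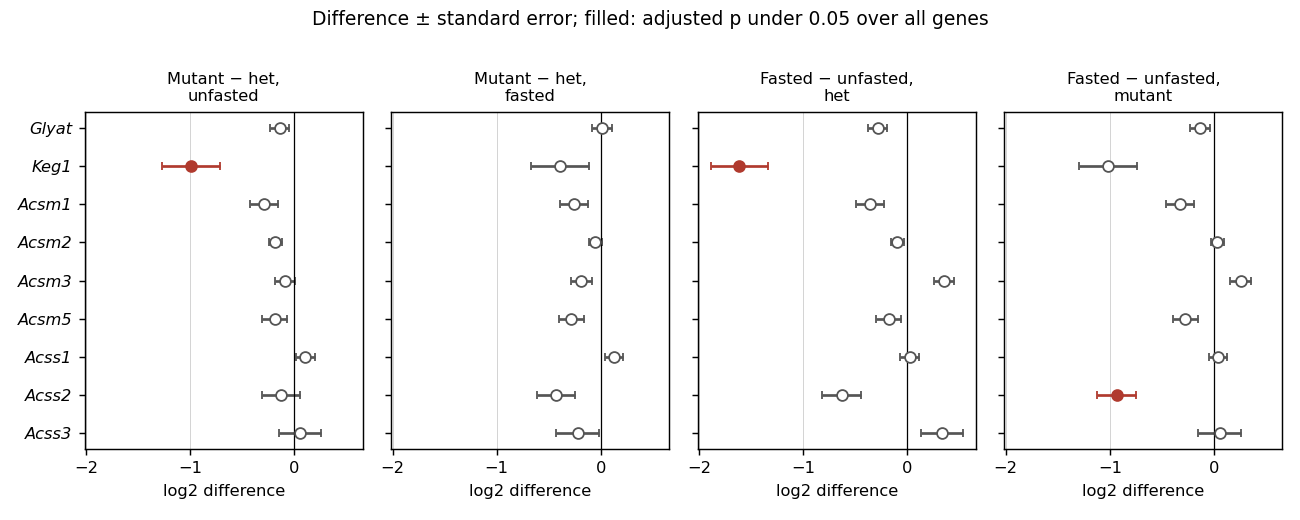
Differences of the 9 genes (log2, horizontal axis) with their standard errors from the fit of all 16 arrays, in the 4 comparisons that change only genotype or only feeding. Filled points were called: Keg1 between unfasted genotypes (-0.99) and with fasting in heterozygotes (-1.61), and Acss2 with fasting in mutants (-0.93).

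Counted over the 9 genes, 1 was called between the unfasted genotypes, where 7.94% of all genes were called (4.25% higher and 3.69% lower), and none between the fasted genotypes, where 13.6% were (8.62% higher and 5.01% lower). At an unadjusted p under 0.05 in limma, 2 members passed between the unfasted genotypes (21.8% of all genes) and 2 between the fasted ones, Acsm5 and Acss2 (30.03%). With fasting 5 of the 9 passed in heterozygotes (12.3% of all genes) and 5 in mutants (22.2%). With fasting 1 member was called in heterozygotes, where 1.57% of all genes were (0.732% higher and 0.838% lower). In mutants 1 was called as well, where 3.35% of all genes were (2.33% higher and 1.02% lower). That share depended on unfasted mutant replicate 1, the array with the acinar signal. Without it 2 members and 1941 of all genes were called with fasting in mutants, against 667 genes with it. None was called in the interaction of genotype and fasting, nor had any an unadjusted p under 0.05 there, where 2 of all genes (0.01%) were called and 10.98% had such a p. The median difference of the members was -0.14 between unfasted and -0.22 between fasted genotypes, and -0.18 and -0.13 with fasting in heterozygotes and mutants. The same medians over all genes were 0.01, -0.02, 0.01 and -0.01. In both genotype comparisons 7 of the 9 members had a negative difference, called or not. Each genotype comparison shares a group of arrays with each fasting comparison, while the 2 genotype comparisons share none with each other.

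Groups that did not overlap were seen for 4 members with fasting in heterozygotes (Keg1, Glyat, Acsm1 and Acsm3), where 10.5% of all genes had such groups. They were seen for 2 with fasting in mutants (Keg1 and Acss2; 10% of all genes), for 2 between unfasted genotypes (Keg1 and Acsm1; 12.0%) and for none between fasted genotypes (23.7%). The comparison with the most calls was that of fasted mutants with unfasted heterozygotes, which changes both genotype and feeding and in which 18.3% of all genes were called, 7.24% lower, and 23.9% had groups without overlap. There 5 members had no overlap, Glyat as well at -0.27 ± 0.09 (adjusted p = 0.052), and 4 were called lower: Keg1 by -2.01 ± 0.28 (4.02-fold, adjusted p = 0.0002), Acss2 by -1.06 ± 0.19 (adjusted p = 0.0011), Acsm1 by -0.62 ± 0.14 (adjusted p = 0.0059) and Acsm5 by -0.46 ± 0.12 (adjusted p = 0.014). Over all 6 pairs of groups, 8 of 54 gene and pair combinations were called. By pair, the share of all genes called ran from 1.57% to 18.3%. Of the 27 steps between neighbours in order 1 was called, and no share over all genes was computed for such steps.

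All members except Glyat and Acss2 had their largest SD in fasted mutants. For Keg1, Acsm1, Acsm5, Acss2 and Acss3, replicates 1 and 2 of that group lay below replicates 3 and 4, for example at 9.22 and 9.72 against 10.64 and 10.53 in Keg1. Replicate 1 was the lowest of its group for 7 of the 9 genes. Replicates 1 and 2 were each below the group mean for 7 genes, replicate 3 for 1 and replicate 4 for 2. The SD of Acsm1 was 0.41 there and 0.03 to 0.09 in the other groups. The summed hepatocyte markers lay between 16.12 and 16.17 in these 4 livers.

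**Figure D3:**
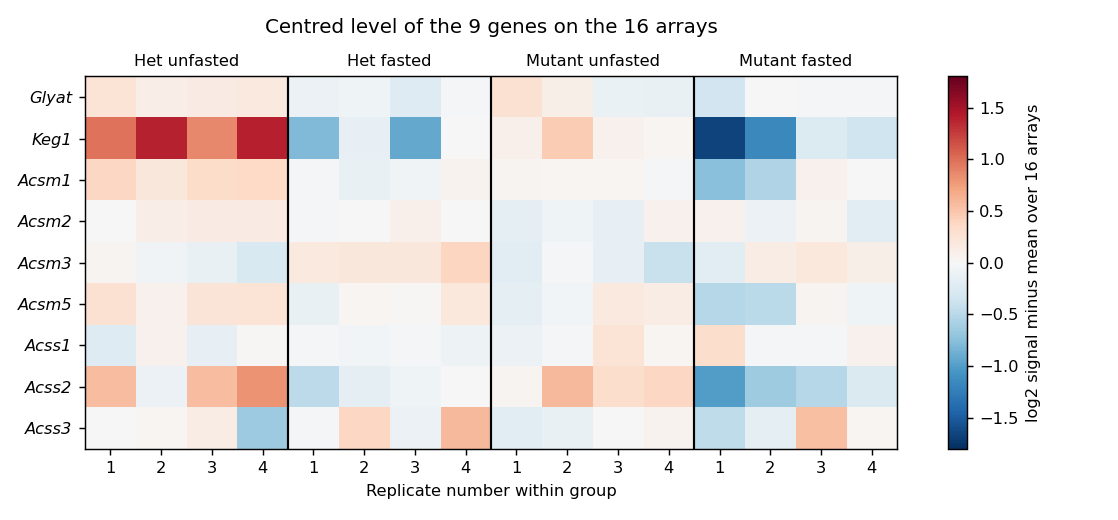
Centred level of the 9 genes (colour, log2 signal minus the gene's mean over the 16 arrays) on the 4 arrays of each group, by replicate number. Keg1 is highest in unfasted heterozygotes (11.74 to 12.28), and replicates 1 and 2 of the fasted mutants lie below replicates 3 and 4 for Keg1, Acsm1, Acsm5, Acss2 and Acss3.

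Genes with the profiles most like those of the members were sought by the root mean square difference of centred values over the 16 arrays, among 17032 named genes. Keg1 was nearest to Nat8f1 (0.37), Slc22a30 (0.39) and Srebf1 (0.44), the last encoding the regulator of lipid synthesis SREBP1. Srebf1 had group means of 10.73, 9.03, 9.63 and 8.93 in unfasted and fasted heterozygotes and unfasted and fasted mutants, the same order of groups as Keg1. Nat8f1 had this order too, as did the members Acss2 and Acsm1, while Slc22a30 did not. Acss2 was nearest to Slc46a3 (0.16), Tlcd2 (0.24) and Adra1b (0.24). Acsm1 was nearest to Slc10a5 (0.12), to its own relative Acsm5 (0.13) and to Sqor (0.14), and Acsm5 to Proz (0.09), Nipsnap1 (0.10) and Nlrp6 (0.11). These values are descriptions, and a gene of small range is near many others.

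Sterol and lipid synthesis genes controlled by SREBP, the family that regulates Acss2, fell with fasting in both genotypes. Of 18 measured genes, 13 fell and none rose in heterozygotes, and 10 fell and none rose in mutants. The list medians were -1.11 and -0.85. Over all genes, 0.838% were called lower and 0.732% higher with fasting in heterozygotes, and 1.02% and 2.33% in mutants. In heterozygotes and mutants, Fasn (fatty acid synthase) differed by -1.72 ± 0.14 and -1.64 ± 0.14 (adjusted p = 3.1e-05 and 6.4e-05) and Thrsp (a lipogenic nuclear protein) by -2.83 ± 0.36 and -2.73 ± 0.36 (adjusted p = 0.00097 and 0.0026). Srebf1 differed by -1.7 ± 0.17 and -0.70 ± 0.17 (adjusted p = 8.0e-05 and 0.032). In heterozygotes 8 fell without unfasted heterozygous replicate 3 or 4 and 7 without fasted heterozygous replicate 1. In mutants 6 fell without unfasted and 5 without fasted mutant replicate 2, and 4 in the fit of only the 8 arrays compared. The Srebf1 call in mutants ended in 5 of the 16 omissions of a single array, with adjusted p reaching 0.094. Between genotypes 3 rose and 2 fell unfasted, Srebf1 among the latter at -1.10 ± 0.17 (limma, adjusted p = 0.0013). In the fasted state 7 rose and 1 fell. The list medians were 0.27 unfasted and 0.21 fasted. Of all genes, 4.25% were called higher and 3.69% lower unfasted, and 8.62% and 5.01% fasted. Without fasted mutant replicate 3 the unfasted rises were 6, and without fasted heterozygous replicate 1 the fasted rises were 4. Sqle (squalene epoxidase) rose there by 1.59 ± 0.45 (adjusted p = 0.029), a call that ended in 6 of the omissions, with adjusted p reaching 0.089.

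Other genes that join acyl groups to amino acids or split such bonds were 11. In fasted mutants against fasted heterozygotes 5 of them fell, none rose and 6 were not called. In that comparison 8.62% of all genes were called higher and 5.01% lower. The list median was -0.20 in this comparison and also between the unfasted genotypes. The genes that fell were Acnat2 (a peroxisomal acyltransferase) at -1.47 ± 0.24 (adjusted p = 0.0017), Baat (which joins bile acids to glycine or taurine) at -0.77 ± 0.12 (adjusted p = 0.0011), Slc27a5 (the bile acid-CoA ligase) at -0.53 ± 0.11 (adjusted p = 0.0064), Pm20d1 (a secreted enzyme of N-acyl amino acids) at -0.51 ± 0.11 (adjusted p = 0.0069) and Acy1 (aminoacylase 1) at -0.47. Without any 1 array 5 or 6 fell. In the unfasted state Baat and Pm20d1 fell, at -0.41 ± 0.12 and -0.46 ± 0.11 (adjusted p = 0.045 and 0.017), calls that ended in 11 and 2 of the omissions, with adjusted p reaching 0.14 and 0.060. Neither was called there once the third unfasted array of either genotype was left out. Of all genes, 3.69% were called lower between the unfasted genotypes. With fasting in heterozygotes Acnat2 rose by 1.16 ± 0.24 (adjusted p = 0.023) and Gm4952, a gene related to Glyat, by 0.40, calls that ended in 5 and 14 of the omissions, with adjusted p reaching 0.086 and 0.14. Of all genes, 0.732% were called higher with fasting in heterozygotes. None of the list was called with fasting in mutants (limma), where Pm20d1 came nearest at -0.40 ± 0.11 (adjusted p = 0.056). Acy1 and Gm4952 were named after their values were seen.

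Genes that make or use glycine, the acceptor of the conjugation, gave 3 rises and 6 falls among 19 measured between the fasted genotypes. Between the unfasted ones there were 2 rises, and the list medians were -0.17 fasted and -0.12 unfasted. Among all genes, 8.62% were called higher and 5.01% lower fasted, and 4.25% and 3.69% unfasted. No gene of the list was called in the interaction (limma), so the states were not shown to differ. Psat1 (serine synthesis) rose by 1.98 ± 0.37 (adjusted p = 0.0036), Gatm (creatine synthesis) by 0.78 ± 0.19 (adjusted p = 0.015) and Alas1 (haem synthesis) by 0.70 ± 0.18 (adjusted p = 0.017). Gldc, the decarboxylase of the glycine cleavage system, fell by 1.13 ± 0.25 (adjusted p = 0.0078). Alas1 lost its call without heterozygous fasted replicate 3 (adjusted p = 0.054), and 3 genes fell without fasted mutant replicate 1 or 2 or fasted heterozygous replicate 1 or 2. In the unfasted state Psat1 rose by 1.49 ± 0.37 (adjusted p = 0.023) and Phgdh, chosen after its value was seen, by 0.49. The Psat1 call ended in 4 of the omissions, with adjusted p reaching 0.074: those of unfasted mutants 1 and 2 (the former with the acinar signal) and of unfasted heterozygotes 3 and 4. None of the list was called with fasting in heterozygotes, where 1.57% of all genes were. Shmt2 alone fell in mutants, by 0.42, where 1.02% of all genes were called lower.

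Some other acyl-CoA synthetases were called between the fasted genotypes, where 13.6% of all genes were, and with fasting in heterozygotes, where 1.57% were. Of 17 measured, none passed between the unfasted genotypes and 2 rose between the fasted ones, Acsl4 (which prefers arachidonate) by 1.43 ± 0.21 (adjusted p = 0.00084) and Acsl5 by 0.28 ± 0.07 (adjusted p = 0.013). With fasting in heterozygotes Aacs (acetoacetyl-CoA synthetase) fell by 1.27 ± 0.19 (adjusted p = 0.0049), while Slc27a1 rose by 1.07 ± 0.23 (adjusted p = 0.025) and Slc27a2, named after its value was seen, by 0.20. The calls of Slc27a1 and Slc27a2 each ended in 5 of the omissions, with adjusted p reaching 0.089 and 0.11. In mutants none of the list was called, and Aacs read -0.67 ± 0.19 (adjusted p = 0.065).

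Enzymes that use or release short-chain acyl-CoAs were lower in mutants where called. Mmut, the gene knocked out in the mutants, is on this list and is counted among the falls in both states. Its fall was given by the design and says nothing of the other enzymes. Between genotypes 4.25% of all genes were called higher and 3.69% lower unfasted, and 8.62% and 5.01% fasted. With fasting 0.732% were called higher and 0.838% lower in heterozygotes, and 2.33% and 1.02% in mutants. Of 20 measured, 5 fell and none rose in the unfasted state: Mmut itself at -1.78 ± 0.11 (adjusted p = 7.5e-07), Acadsb (short/branched-chain acyl-CoA dehydrogenase) at -0.70 ± 0.15 (adjusted p = 0.010), Acly (ATP citrate lyase) at -0.66 ± 0.16 (adjusted p = 0.018), and Pcca and Acad8, named after their values were seen, at -0.40 and -0.32. In the fasted state Mmut, Acadsb at -0.62 ± 0.15 (adjusted p = 0.013) and Ivd at -0.52 fell. In the unfasted state 2 fell without unfasted heterozygous replicate 3 or 4 and 3 without unfasted mutant replicate 2 or 3 or fasted heterozygous replicate 2. In the fasted state 6 fell without unfasted and 7 without fasted mutant replicate 3, 5 with array weights, centred arrays or bright genes only, and 7 after a second quantile normalization. With fasting in heterozygotes Acly, which makes acetyl-CoA from citrate as Acss2 does from acetate, fell by 1.38 ± 0.16 (adjusted p = 0.00056). Crat (carnitine acetyltransferase), and Acot8 and Acot12, named after their values were seen, rose by 0.69 ± 0.16 (adjusted p = 0.034), 0.43 and 0.36. In mutants Acly fell by 0.72 ± 0.16 (adjusted p = 0.023) and Acot8 rose by 0.30. The call of Crat ended in 6 of the omissions and that of Acly in mutants in 3, with adjusted p reaching 0.11 and 0.069. Between unfasted genotypes the calls of Pcca, Acad8 and Acly ended in 5, 10 and 2 of the omissions, between fasted genotypes that of Ivd in 6, and with fasting those of Acot12 in heterozygotes and Acot8 in mutants in 1 and 4. No gene of the 5 lists was called in the interaction (limma). Acly stands in both this list and that of SREBP genes.

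**Figure D4:**
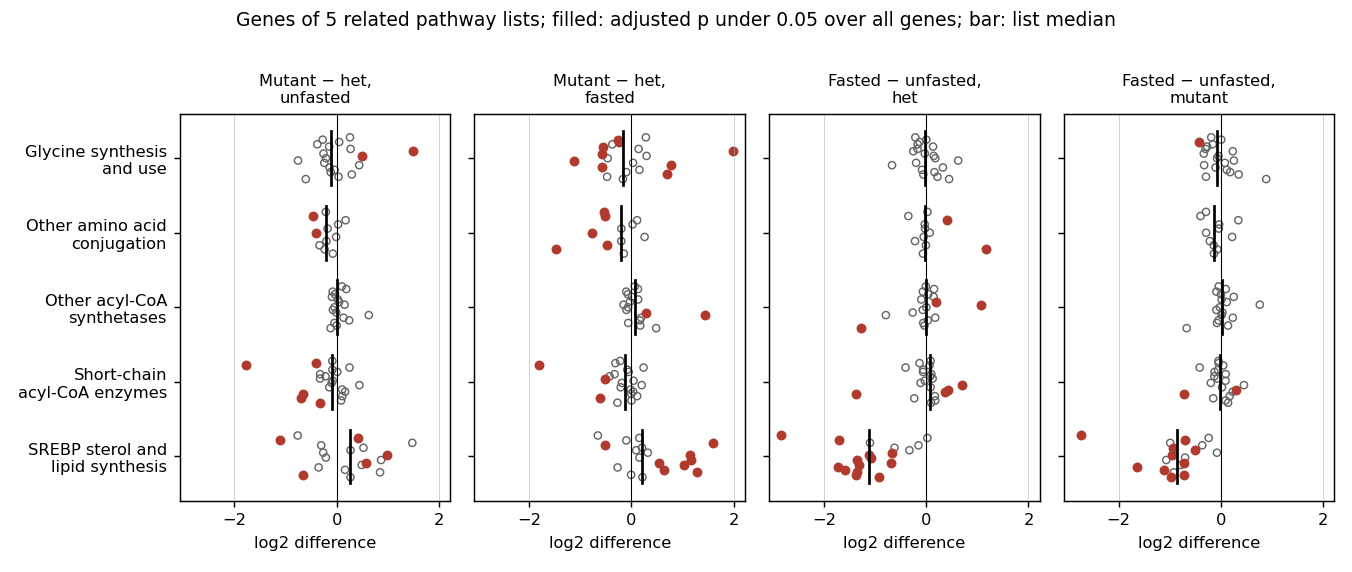
Differences (log2, horizontal axis) of the measured genes of 5 pathway lists in the 4 comparisons; each point is a gene, filled where it was called, and the bar marks the list's median. The SREBP list, with 13 of 18 genes lower after the fast in heterozygotes and 10 in mutants, stands to the left of 0 in both fasting panels (medians -1.11 and -0.85). Of all genes, 0.838% and 1.02% were called lower in these panels.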

How the data were processed

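Liver RNA of 16 mice in 4 groups of 4 was measured on Affymetrix Mouse Gene 1.0 ST arrays, from 300 ng of total RNA each, per the labels' protocols. The authors deposited 1 table of log2 values for 35556 probe sets, made with Affymetrix Expression Console and RMA (background correction, quantile normalization and summary of probes), per the submitters' processing notes. Versions and build are not given in the sources used here. The log2 scale was read from the range of 3.80 to 14.33 and array medians of 7.33 to 7.40. No detection calls were used, so changes of dim genes can be understated, and the number of arrays limits the precision.

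Probe sets with 1 symbol in the platform annotation (21789) were named through RefSeq (GRCm38.p6, 21698 matched). The one with the highest mean stood for a gene, which left 19938 genes with no filter. All 16 arrays entered a single limma 3.58.1 fit in R 4.3.3, with a mean for each group (variance trend, two-sided, Benjamini-Hochberg over all genes). The fit was tested on simulated data. Values are log2 differences ± standard error unless SD is named. Groups came from the titles. The series text speaks of separate mice. Replicate numbers are shared between groups, and the fit treats the arrays as unpaired. Same-number correlations of deviations from group means ran from -0.12 to 0.25, and 6 of 16 exceeded 0.1. The best-correlated array had the same number in 6 of 16. With 4 arrays a group these correlations cannot show whether the numbers mark a shared batch.

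All 9 members are named. Of each pathway list, up to 4 called genes with the largest change in any of the 4 comparisons that change genotype or feeding are named, and for the 4 members of largest range the 3 nearest genes. Members and lists were chosen with earlier results of these data known. Alternatives were a replicate block, only the arrays compared, array weights, centred arrays, a second quantile normalization, other variance moderation, means over probe sets, brighter genes only, a threshold of 0.01 and leaving out each array. Listed genes without a probe set of their own symbol were not analysed here.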

Additional observations from a re-analysis of the deposited data

Results flagged for a closer look

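In 36 groups of 4 values, 5 had a highest or lowest array whose gap to the nearest other was so large a share of the group's range that it passed Dixon's limit, which chance passes in about 1 of 20 groups. Glyat read 10.7 on fasted mutant replicate 1, where the next lowest was 11. Keg1 read 11.34 on unfasted mutant replicate 2, where the next highest was 10.97. Acsm2 read 6.01 on fasted heterozygous replicate 3 against 5.91. Acsm3 read 11.60 on fasted heterozygous replicate 4 against 11.42. Acsm5 read 11.33 on unfasted heterozygous replicate 2, where the next lowest was 11.49.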

How the results depend on the processing

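Of 45 member differences, 37 kept their direction in all settings run and 27 also their side of the threshold. Comparisons are given here in the order unfasted genotypes, fasted genotypes, fasting in heterozygotes, fasting in mutants and interaction, for which the members called were 1, 0, 1, 1 and 0 and all genes called 1584, 2716, 313, 667 and 2. With the replicate number as a block in limma, 2 members were called with fasting in mutants (Keg1, adjusted p = 0.045, and Acss2). No other member count changed. The falls among short-chain acyl-CoA enzymes between fasted genotypes went from 3 to 5. The main fit treats the arrays as unpaired. In fits of only the 8 arrays compared, members called were 2 between unfasted genotypes, 4 with fasting in heterozygotes and 0 in mutants, and all genes called 764, 568 and 33. With array weights they were 0 between unfasted genotypes and 4 with fasting in heterozygotes, where 1029 of all genes were called, with 1 gene in the interaction. Centring gave 2 members between unfasted genotypes and 1 interaction gene, a second quantile normalization 2 members with fasting in each genotype, and robust moderation 0 members between unfasted genotypes and 0 interaction genes. Keeping only bright genes, which leaves no value for Acsm2 and Acss1, gave 2 members with fasting in mutants and 0 interaction genes. At an adjusted p under 0.01, members called were 0 between unfasted genotypes and 0 with fasting in mutants, and all genes called 461, 993, 73, 79 and 0. The 8 gene and pair calls became 13 with array weights and 5 at 0.01.

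Leaving out each array gave 0 to 1, 0 to 1, 1 to 2, 1 to 2 and 0 members, 7 to 10 pair calls, and 698 to 1781, 1575 to 3180, 155 to 358, 224 to 1941 and 0 to 6 of all genes. The 1941 came from omitting the array with the acinar signal. Signs turned only for differences that were not called. Glyat between fasted genotypes read -0.0112 centred, -0.0080 after the second quantile normalization and -0.0270 to 0.0914 over the omissions. Acss3 with fasting in mutants and the Acsm1 interaction read -0.0119 and -0.0504 after that normalization, and -0.1268 to 0.2057 and -0.0942 to 0.1840 over the omissions. Over the omissions Acss3 between unfasted genotypes read -0.1237 to 0.1413, Acsm2 with fasting in mutants -0.0074 to 0.0836, and Acss1 -0.0290 to 0.0706 with fasting in heterozygotes, -0.0380 to 0.1133 in mutants and -0.0608 to 0.0905 in the interaction. The cause of these changes was not tested. The list counts under all settings were added after seeing the data.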
